A study of Mus musculus with 12 samples.

Results

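Rab GTPases are small membrane-bound switches that steer vesicle traffic. The genes described were all those measured by a probe set with a single gene symbol whose symbol is Rab followed by a number and an optional letter, apart from Rab7b and Rab43. This gave 57 of the 19938 genes measured, each represented by its brightest probe set. The cells were type 1 conventional dendritic cells (cDC1), which take up dead cells and present their antigens to CD8 T cells, from naive C57BL/6 mice. Every mouse, controls included, was CD40 fl/fl, meaning that both Cd40 alleles were flanked by loxP sites. Control mice were Xcr1+/+, and the other mice were Xcr1 Cre/+, so that Cre was made under the cDC1 chemokine receptor gene Xcr1. Each genotype was sampled in spleen (SPL) and in skin-draining lymph nodes (SDLN, called node below), which gave 4 groups of 3 arrays. Both sorts took B220- MHC class II high XCR1+ Sirpa- cells, and differed in CD11c, which was high in the spleen gate and intermediate in the node gate for migratory cDC1. Ages are not given in the sources used here. Nor do these sources say whether replicates came from separate animals, and a p-value therefore reflects array-to-array spread, which may be technical.

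In its GTP-bound form a Rab sits on one kind of membrane and recruits effectors that move, tether or fuse vesicles. Exchange factors load a Rab with GTP, GTPase-activating proteins switch it off, and carriers such as GDP dissociation inhibitors keep the inactive form in the cytosol. In dendritic cells, Rabs direct the making of phagosomes, the recycling of MHC molecules and the delivery of captured antigen. Values below are RMA intensities on the linear scale, and differences are on the log2 scale. Where 3 intensities are given for a group, they belong to replicates 1, 2 and 3, and "Cre" means only that the array carries that label.

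Of the 57 members, 47 matched an entry in the RefSeq promoter table (GRCm38.p6), which spans 250 bases before to 50 after a gene's start. The 250 bases before the start of the most changed members in each direction that had an entry are shown 5′ to 3′ on the gene's strand, because these members lead the tissue comparison. Capitals mark the E-box core CACGTG in Rab21 and Rab23 and the interferon response type motif GAAANNGAAA, read on the other strand, in Rab19. Rab9 lies at chrX:166479868-166480117 on the minus strand, just before the annotated gene, and holds none of the motifs searched. Rab21 lies at chr10:115315592-115315841 on the minus strand, inside the annotated gene span, which has a start farther upstream. Rab23 (promoter 1 of 2) lies at chr1:33719646-33719895 on the plus strand, and Rab19 lies at chr6:39381103-39381352 on the plus strand, inside its annotated gene span.
Rab9: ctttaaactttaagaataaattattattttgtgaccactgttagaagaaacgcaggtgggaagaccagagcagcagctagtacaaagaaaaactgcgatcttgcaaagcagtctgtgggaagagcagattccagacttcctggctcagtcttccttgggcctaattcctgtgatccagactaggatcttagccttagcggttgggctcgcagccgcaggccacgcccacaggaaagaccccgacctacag
Rab21: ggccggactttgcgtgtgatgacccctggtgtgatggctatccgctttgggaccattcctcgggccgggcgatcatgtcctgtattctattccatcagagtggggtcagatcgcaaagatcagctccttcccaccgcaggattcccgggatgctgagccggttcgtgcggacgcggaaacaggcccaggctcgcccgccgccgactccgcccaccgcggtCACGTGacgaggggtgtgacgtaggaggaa
Rab23: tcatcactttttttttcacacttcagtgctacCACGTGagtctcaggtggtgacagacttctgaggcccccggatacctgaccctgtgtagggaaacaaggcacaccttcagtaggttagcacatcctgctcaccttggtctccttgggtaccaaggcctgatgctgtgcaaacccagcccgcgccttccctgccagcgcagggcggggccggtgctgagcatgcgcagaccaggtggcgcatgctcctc
Rab19: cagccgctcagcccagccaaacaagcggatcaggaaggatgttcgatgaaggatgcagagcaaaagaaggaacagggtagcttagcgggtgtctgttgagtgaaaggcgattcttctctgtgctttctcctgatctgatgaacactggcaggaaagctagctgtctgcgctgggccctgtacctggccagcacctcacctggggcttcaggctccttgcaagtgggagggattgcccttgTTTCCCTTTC

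The whole window, both strands, was searched for 4 motifs. CACGTG was present in 6 of the 47 members (12.8%; Rab20, Rab21, Rab23, Rab24, Rab27a and Rab5a), against 9.5% of the 15614 measured genes with a promoter and 8.09% of all 27025 genes in the table. In Rab21 the first base of the E-box lay 30 bases before the start, and in Rab23 it lay 218 bases before it. The AP-1 type motif TGANTCA was present in 3 members (6.38%; Rab15, Rab34 and Rab39b), against 8.08% of measured genes and 8.97% of the table. GAAANNGAAA was present in Rab19 only among the 47 (2.13%), starting 10 bases before the start, against 3.89% of measured genes and 3.99% of the table. The NF-kB type motif GGGANTTCC matched in 0 of the 47 windows, against 2.2% of measured genes and 1.92% of the table, which says only that these letters are not in these windows. None of the 4 motifs contains another. A ratio of observed to expected CpG of 0.6 or more was found in 35 members (74.5%), against 52.3% of measured genes and 36.5% of the table.

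Median intensities per array ran from 66.1 to 74.4. Cd40, which the Cre is meant to delete, went against the genotype labels on some arrays: it was 572, 525 and 309 in spleen control, 365, 214 and 569.5 in spleen Cre, 2138, 2777 and 1542 in node control and 1427, 1388 and 3358 in node Cre. Its Cre minus control difference was -0.35 in spleen (SE 0.40, limma adjusted p = 1) and -0.15 in node (SE 0.40, limma adjusted p = 1), and the positions of its probes in the gene were not used here. Of 12 cDC1 markers, 10 were lower and 1 (Batf3) higher in node under both labels, with a summed intensity of 40624 to 55287 per spleen array and 9924 to 11675 per node array. Xcr1 itself differed by -3.71 and -3.55 under the control and Cre labels, Clec9a by -4.11 and -4.13, and no cDC1 marker was at background in every group. Of 11 migratory dendritic cell markers, 9 were higher in node under both labels, with sums of 13422 to 19118 in spleen and 57791 to 74262 in node. Some markers of other cells also moved with tissue. Of 9 T cell markers, 4 (Il7r, Cd3g, Cd3d and Cd3e) were higher and 1 (Cd5) lower in node, with sums of 870.0 to 1075 in spleen and 2255 to 3018 in node. Much of that rise lay in Il7r, at 73.9 to 137.5 per spleen array and 771.8 to 1752 per node array. Cd3e ran from 101.1 to 131.2 in spleen and from 160.8 to 210.4 in node. Cd3g ran from 58.9 to 137.9 in spleen and from 116.2 to 512.7 in node. Cd3d ran from 61.9 to 124.9 in spleen and from 98.7 to 331.9 in node. Both Cd3g and Cd3d were highest on replicate 1 in each node group. Macrophage and monocyte markers summed to 2470.5 to 4252 in spleen and 1068 to 1310.1 in node. Of these 11, 2 (Cd14 and Lyz2) were lower and 1 (Vcam1) higher under both labels, with list medians of -0.11 and 0.04. Mast cell and basophil markers summed to 2751 to 3621 in spleen and 579.8 to 725 in node. Only 1 of these 7 (Kit) was called under both labels, being lower, and list medians were -0.01 and 0.01. Langerhans cell and keratinocyte markers summed to 649 to 949.5 in spleen and 675 to 902 in node. Within that last list of 9, Perp (1.3 and 1.77), Epcam (1.04 and 1.27) and Krt14 (0.57 and 0.76) were higher in node under the control and Cre labels, while the brighter Cd207 was lower (-1.34 and -1.34). The part of these cells in the Rab differences was not tested, and in sorted bulk RNA fewer cells of a type and less RNA per cell cannot be told apart.

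A level of 22.2, the highest intensity of the Y-linked genes Uty, Kdm5d and Eif2s3y on any array, was taken as background. By group means, 52 of the 57 Rabs lay above it in all 4 groups. The level rests on 3 genes and is low. Of 8 melanocyte and 8 neutrophil markers measured, 0 lay at or below it in all 4 groups. A value above it therefore does not by itself show that a gene is expressed in cDC1. Rab3b and Rab3c, which are Rabs of synaptic vesicles, and Rab15 and Rab33a lay at or below it in all 4 groups, and Rab42 did so in spleen Cre. The heatmap of all members shows each array's deviation from the gene's mean.

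**Figure D1:**
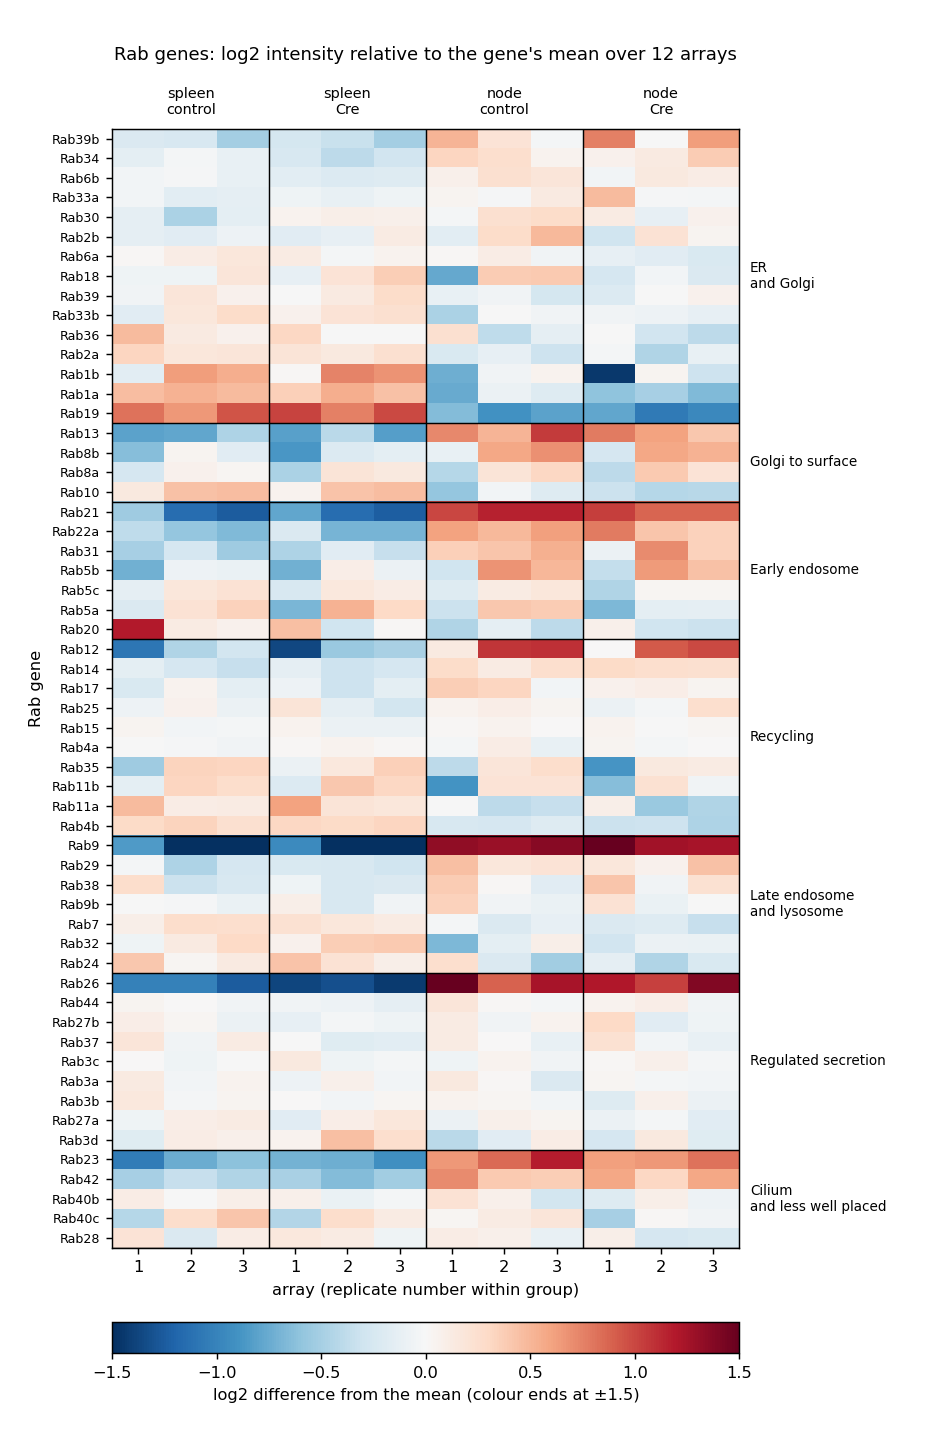
Each row is 1 of the 57 Rab genes, ordered by role, and each column 1 of the 12 arrays in 4 groups; colour is the log2 intensity minus the gene's mean over the arrays. Rab9, Rab26 and Rab21 were lower on every spleen array than on any node array, Rab19 was higher, and most rows showed little tissue contrast.

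Between node and spleen, the direction of each difference was tested within each genotype label by limma over all 19938 genes, with a call at an adjusted p under 0.05. Under the control label 12 members were higher in node (21.1%, against 12.9% of all genes called higher) and 6 were lower (10.5%, against 13.2%). Under the Cre label 13 were higher (22.8%, against 13.1%) and 8 lower (14%, against 15.2%). Same-numbered arrays deviated together, and with the number as a block the counts were larger. They became 17 higher (against 18.2% of all genes) and 12 lower (against 17.8%) under the control label, and 17 higher (against 20.5%) and 15 lower (against 20.4%) under the Cre label. With the block, all 18 control calls and all 21 Cre calls made without it were kept.

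Called under both labels were 12 higher members (21.1%, against 10.4% of all genes) and 5 lower members (8.77%, against 12.3%). The higher members were Rab9, Rab26, Rab21, Rab23, Rab12, Rab13, Rab22a, Rab42, Rab31, Rab39b, Rab29 and Rab14, and the lower ones Rab19, Rab1a, Rab10, Rab4b and Rab2a. Counting arrays alone, all 3 node arrays lay above all 3 spleen arrays for 16 members under the control label (against 19% of all genes) and for 17 under the Cre label (against 22.4%). They lay below them for 8 members (against 17.3%) and 11 members (against 18.7%). The shares of members whose arrays did not overlap were thus 28.1% and 14% under the control label and 29.8% and 19.3% under the Cre label, for above and below.

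As a group the Rabs did not shift one way. Their median difference was 0.03 under the control label and 0.00 under the Cre label, beside 0.03 and 0.07 for all genes. Under the control label 30 were above 0 and 27 below, and under the Cre label 29 and 28. The median size of a difference regardless of sign was 0.31 and 0.35 for the Rabs and 0.16 and 0.21 for all genes. Genes were not matched for intensity, so this does not show that Rabs differ more than genes of like brightness. Both genotype labels gave the same direction for 50 members. The other 7 (Rab30, Rab37, Rab3a, Rab3c, Rab40c, Rab4a and Rab5a) had differences of opposite sign.

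**Figure D2:**
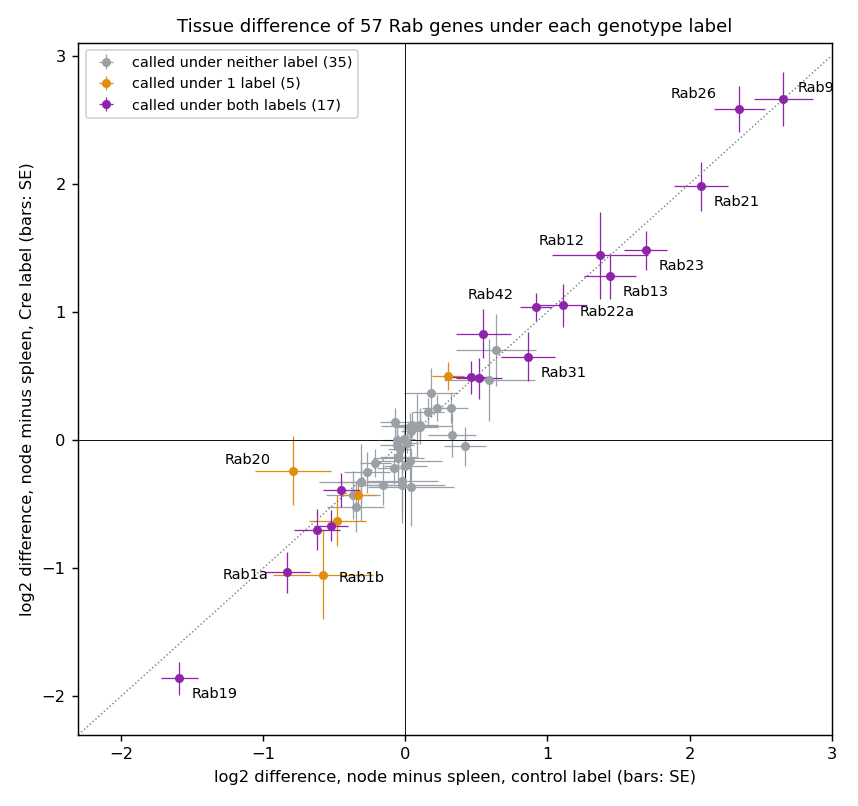
Each point is 1 of the 57 Rab genes, with its log2 node minus spleen difference under the control label on the x axis and under the Cre label on the y axis; bars are standard errors and the dotted line marks equal values. Rab9, Rab26 and Rab21 stand at the upper right and Rab19 at the lower left, each with similar values under both labels, which come from different arrays.

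Rabs of the late endosome and lysosome held the member with the largest rise. Of 7 measured, 2 (Rab9 and Rab29) were higher in node under both labels (28.6%, against 10.4% of all genes) and 0 lower (against 12.3%). Role medians were 0.10 and 0.10. Rab9 (chrX:166457251-166479867), which returns mannose-6-phosphate receptors from late endosomes to the Golgi, had intensities of 712, 426 and 434 in spleen control, 661, 446 and 456 in spleen Cre, 3221, 3136 and 3294 in node control and 3634, 3067 and 3031 in node Cre. Every node array was thus above every spleen array, and in both spleen groups replicate 1 was the highest. Rab9 differed by 2.66 under the control label (SE 0.21, limma adjusted p = 3.58e-07) and 2.66 under the Cre label (SE 0.21, limma adjusted p = 3.46e-07), a 6.32-fold and a 6.31-fold rise. The X-linked relative Rab9b had intensities of 69.0, 68.6 and 64.7 in spleen control, 73.5, 58.7 and 66.9 in spleen Cre, 88.1, 66.6 and 64.6 in node control and 80.7, 64.7 and 68.7 in node Cre, and its groups overlapped. Its differences of 0.10 and 0.10 were not called.

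Rab29, which recruits the kinase Lrrk2 to membranes, had intensities of 577, 425 and 491 in spleen control, 501, 498 and 476 in spleen Cre, 799, 661 and 679 in node control and 660.3, 613 and 798 in node Cre. Its groups did not overlap within either label, and it differed by 0.52 under the control label (SE 0.16, limma adjusted p = 0.0246) and 0.48 under the Cre label (SE 0.16, limma adjusted p = 0.0358). That call was lost in 3 of the 12 fits leaving out 1 array under the control label, with adjusted p of 0.071 to 0.125, and in 5 under the Cre label, with adjusted p of 0.0515 to 0.147. Rab7, the Rab that drives fusion of late endosomes and phagosomes with lysosomes, had intensities of 3167, 3578 and 3531 in spleen control, 3492, 3339 and 3223 in spleen Cre, 2902, 2554 and 2717 in node control and 2559, 2588 and 2338 in node Cre. Node arrays were below spleen arrays under both labels, and Rab7 differed by -0.33 under the control label (SE 0.12, limma adjusted p = 0.0503) and -0.43 under the Cre label (SE 0.12, limma adjusted p = 0.0124), so that it was called under the Cre label only. With the block, Rab7 was also called under the control label (limma adjusted p = 0.00396). Rab32 and Rab38, which serve lysosome-related organelles, differed by -0.37 and -0.43 and by 0.18 and 0.37 under the control and Cre labels, and neither was called without the block. With it, Rab32 was called lower under both labels and Rab38 higher under the Cre label. Melanocyte markers, cells in which Rab38 is well known, summed to 415 to 457 in spleen and 410.4 to 484 in node.

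Among the early endosome Rabs, 3 of 7 (Rab21, Rab22a and Rab31) were higher in node under both labels (42.9%, against 10.4% of all genes). Under both labels 0 were lower (against 12.3%), and role medians were 0.59 and 0.47. Rab21 (chr10:115289862-115317419), which controls the endosomal traffic of integrins, had intensities of 722, 470.5 and 437 in spleen control, 608, 469.6 and 441 in spleen Cre, 2081, 2308 and 2316 in node control and 2138, 1913 and 1902 in node Cre. All node arrays exceeded all spleen arrays by a wide margin. Rab21 differed by 2.08 under the control label (SE 0.19, limma adjusted p = 1.76e-06) and 1.98 under the Cre label (SE 0.19, limma adjusted p = 2.62e-06), a 4.22-fold and a 3.95-fold rise.

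Rab22a (chr2:173659836-173702186), a Rab of the recycling of MHC class I in dendritic cells, had intensities of 333, 289 and 272 in spleen control, 373, 266 and 266 in spleen Cre, 659, 608 and 660.1 in node control and 739.7, 577 and 547 in node Cre. Its groups did not overlap, and it differed by 1.11 under the control label (SE 0.17, limma adjusted p = 0.000208) and 1.05 under the Cre label (SE 0.17, limma adjusted p = 0.00033), a 2.16-fold and a 2.07-fold rise. Rab31 (chr17:65651726-65772752), a close relative of Rab22a that acts between Golgi and endosomes, had intensities of 671, 792 and 656 in spleen control, 685, 838 and 747 in spleen Cre, 1207, 1262 and 1366 in node control and 890.5, 1544 and 1199 in node Cre. In node Cre its replicate 1 array came near the spleen range, while the other node arrays were well above it. Rab31 differed by 0.86 under the control label (SE 0.19, limma adjusted p = 0.00293) and 0.65 under the Cre label (SE 0.19, limma adjusted p = 0.0173). Its Cre call was lost without spleen Cre replicate 1 or 3 or node Cre replicate 2 or 3, with adjusted p of 0.0514 to 0.0813.

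Of the classical early endosome Rabs, which drive fusion of incoming vesicles, Rab5b lay above 0 under both labels and Rab5a and Rab5c did not. Rab5a had intensities of 539, 728 and 793 in spleen control, 387, 896 and 771 in spleen Cre, 501, 823 and 814 in node control and 391, 564 and 567 in node Cre, and its groups overlapped. Rab5b had 559.8, 878 and 865 in spleen control, 560.5, 989 and 871 in spleen Cre, 752, 1469.6 and 1308 in node control and 719.5, 1434 and 1255 in node Cre, with the replicate 1 array lowest in every group. Rab5c had 722, 891 and 920.3 in spleen control, 671, 882 and 856 in spleen Cre, 695, 865 and 888 in node control and 577, 809 and 810.3 in node Cre, again lowest on replicate 1. The differences were 0.04 and -0.37 for Rab5a, 0.59 and 0.47 for Rab5b and -0.05 and -0.14 for Rab5c under the control and Cre labels, none of them called without the block. With the block, Rab5b was called higher under both labels (limma adjusted p = 0.000144 and 0.000853) and Rab5a lower under the Cre label (limma adjusted p = 0.0364). The probe set used for Rab5b, a gene of chromosome 10, carries a number that falls among those of chromosome 2 genes. The other Rab5b probe set, numbered among chromosome 10 genes, differed by 0.61 and 0.48.

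Rab20, a Rab of phagosome maturation, had intensities of 518, 248 and 238 in spleen control, 312, 186 and 231 in spleen Cre, 166, 207 and 173 in node control and 240.2, 186 and 182 in node Cre. Spleen control replicate 1 stood above all others at 518, and the node groups overlapped each other. Rab20 differed by -0.79 under the control label (SE 0.27, limma adjusted p = 0.047) and -0.24 under the Cre label (SE 0.27, limma adjusted p = 0.562), so it was called lower under the control label only. The difference between these tissue effects was 0.55 (SE 0.38) and did not pass the test (limma unadjusted p = 0.177).

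Of 10 recycling Rabs measured, 2 (Rab12 and Rab14) were higher in node under both labels (20%, against 10.4% of all genes). Rab4b was lower under both (10%, against 12.3%), a share close to that of all genes, and role medians were 0.03 and 0.02. Rab12 (chr17:66494512-66519750), which sends recycling cargo such as the transferrin receptor to lysosomes, had intensities of 119, 184 and 207 in spleen control, 97.6, 172 and 179 in spleen Cre, 277, 528 and 538 in node control and 253, 475 and 501 in node Cre. Replicate 1 was the lowest array in all 4 groups, yet each node array exceeded each spleen array. Rab12 differed by 1.37 under the control label (SE 0.34, limma adjusted p = 0.00685) and 1.44 under the Cre label (SE 0.34, limma adjusted p = 0.00473), a 2.59-fold and a 2.72-fold rise. Its calls held without any single array, but not under both labels when all arrays of some number were left out together.

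Rab14, which links the Golgi with endosomes, had intensities of 1268, 1176 and 1105 in spleen control, 1277, 1128 and 1176 in spleen Cre, 1688, 1530.0 and 1672 in node control and 1705, 1666 and 1651 in node Cre, and its tissues did not overlap. It differed by 0.46 under the control label (SE 0.13, limma adjusted p = 0.0125) and 0.49 under the Cre label (SE 0.13, limma adjusted p = 0.00843). Without spleen control replicate 3 the control call was lost (limma adjusted p = 0.0635). Rab4b (chr7:27168433-27178883), a Rab of fast recycling to the surface, had intensities of 1703, 1761 and 1649.5 in spleen control, 1735, 1702 and 1739.6 in spleen Cre, 1181, 1171 and 1217 in node control and 1118, 1130.4 and 1017 in node Cre. These arrays were tightly grouped, with every node array below every spleen array, and Rab4b differed by -0.52 under the control label (SE 0.12, limma adjusted p = 0.00442) and -0.67 under the Cre label (SE 0.12, limma adjusted p = 0.000654), a 1.43-fold and a 1.59-fold fall. Its relative Rab4a differed by 0.01 and -0.02 and was not called.

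Rab11a, the defining Rab of the recycling endosome, had intensities of 2308, 1789 and 1812 in spleen control, 2516, 1896 and 1872 in spleen Cre, 1650.0, 1265 and 1312 in node control and 1761, 1132 and 1211 in node Cre. Replicate 1 was highest in each group, and within each label node lay below spleen. Rab11a differed by -0.48 under the control label (SE 0.20, limma adjusted p = 0.0943) and -0.63 under the Cre label (SE 0.20, limma adjusted p = 0.027), called under the Cre label only, and with the block under the control label as well (limma adjusted p = 0.000219). Rab11b differed by -0.31 and -0.33 and was called only with the block, under the Cre label (limma adjusted p = 0.0455). The probe set used for Rab11b, a gene of chromosome 17, is numbered among chromosome 19 genes, and its other probe set, numbered among chromosome 17 genes, differed by -0.17 and -0.47.

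Rabs of the ER and Golgi, the entry to the secretory pathway, are the largest role: of 15 measured, 3 (20%; Rab19, Rab1a and Rab2a) were lower and 1 (6.67%; Rab39b) higher under both labels, beside 12.3% and 10.4% of all genes, with role medians of -0.08 and -0.22. Rab19 (chr6:39380709-39390666), a less studied Rab placed at the Golgi, had intensities of 171, 152 and 186 in spleen control, 196, 164 and 192 in spleen Cre, 61.8, 51.6 and 55.5 in node control and 56.4, 46.6 and 49.7 in node Cre. All spleen arrays were far above all node arrays. Rab19 differed by -1.59 under the control label (SE 0.13, limma adjusted p = 4.1e-07) and -1.86 under the Cre label (SE 0.13, limma adjusted p = 9.68e-08), which was 3.01-fold and 3.62-fold lower in node.

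Rab1a (chr11:20201412-20226856), which moves vesicles from the ER to the Golgi, had intensities of 2415, 2527 and 2434 in spleen control, 2241, 2554 and 2382 in spleen Cre, 1042, 1647 and 1529 in node control and 1150.2, 1244 and 1111 in node Cre. All spleen arrays were above all node arrays, and node control replicate 1 was the lowest of the 12. Rab1a differed by -0.83 under the control label (SE 0.16, limma adjusted p = 0.00136) and -1.03 under the Cre label (SE 0.16, limma adjusted p = 0.000233), a 1.78-fold and a 2.05-fold fall. Its relative Rab1b had intensities of 651, 1126 and 1064 in spleen control, 739, 1221 and 1161 in spleen Cre, 438, 703 and 754 in node control and 268, 746 and 586 in node Cre, lowest on replicate 1 in each group, so that the tissues overlapped. Rab1b differed by -0.58 under the control label (SE 0.35, limma adjusted p = 0.301) and -1.05 under the Cre label (SE 0.35, limma adjusted p = 0.039), called under the Cre label only, and with the block under the control label as well (limma adjusted p = 0.00335).

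Rab2a (chr4:8535469-8607702), which acts between the Golgi and the ER, had intensities of 3528, 3191 and 3212 in spleen control, 3239, 3136 and 3329 in spleen Cre, 2407, 2597 and 2281 in node control and 2768, 2074 and 2612 in node Cre. Its tissues did not overlap, and it differed by -0.45 under the control label (SE 0.13, limma adjusted p = 0.021) and -0.39 under the Cre label (SE 0.13, limma adjusted p = 0.0393). This was the smallest difference called under each label, and it was lost in 2 of the 12 fits leaving out 1 array under the control label (adjusted p of 0.0732 and 0.0782) and in 8 under the Cre label (0.0508 to 0.158). The probe set used for Rab2a, a gene of chromosome 4, is numbered among chromosome 5 genes, and its other probe set, numbered among chromosome 4 genes, differed by -0.30 and -0.37.

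Rab39b (chrX:75572045-75578231), an X-linked Rab best known in neurons, had intensities of 59.6, 58.6 and 48.7 in spleen control, 57.8, 54.7 and 48.5 in spleen Cre, 98.8, 80.0 and 68.1 in node control and 117, 69.1 and 107 in node Cre. Node arrays were above spleen arrays but spread widely, and Rab39b differed by 0.55 under the control label (SE 0.19, limma adjusted p = 0.0404) and 0.83 under the Cre label (SE 0.19, limma adjusted p = 0.00345). Leaving out any of 6 of the 12 arrays ended the control call, with adjusted p of 0.0533 to 0.157. Its relative Rab39 differed by -0.21 and -0.18 and was not called. Rab34, a Golgi Rab that positions lysosomes, had intensities of 50.4, 54.8 and 51.5 in spleen control, 47.1, 42.4 and 45.7 in spleen Cre, 69.6, 66.2 and 57.7 in node control and 58.1, 61.4 and 72.4 in node Cre, and differed by 0.30 under the control label (SE 0.11, limma adjusted p = 0.054) and 0.50 under the Cre label (SE 0.11, limma adjusted p = 0.00258), called under the Cre label only, and with the block under the control label as well (limma adjusted p = 0.0426).

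Of the 4 Rabs that carry cargo from the Golgi to the surface, Rab13 was higher and Rab10 lower in node under both labels. Each is 25% of the role, against 10.4% of all genes higher and 12.3% lower, and role medians were 0.36 and 0.40. Rab13 (chr3:90213715-90226387), a Rab of cell junctions and surface delivery, had intensities of 103, 104 and 130.2 in spleen control, 102, 135 and 101 in spleen Cre, 296, 255 and 371 in node control and 307, 272 and 236 in node Cre. Each node array was above each spleen array, and Rab13 differed by 1.44 under the control label (SE 0.18, limma adjusted p = 2.61e-05) and 1.28 under the Cre label (SE 0.18, limma adjusted p = 7.61e-05), a 2.71-fold and a 2.42-fold rise. Rab10 (chr12:3247428-3309969), which brings receptors and transporters such as Tlr4 and Glut4 to the surface, had intensities of 2975, 3651 and 3692 in spleen control, 2779, 3612 and 3705 in spleen Cre, 1801, 2618 and 2349 in node control and 2142, 2000.5 and 2017 in node Cre. Node was below spleen on every array, and Rab10 differed by -0.62 under the control label (SE 0.16, limma adjusted p = 0.0116) and -0.70 under the Cre label (SE 0.16, limma adjusted p = 0.00499). Its control call was lost without spleen control replicate 2 or 3 (limma adjusted p of 0.0516 and 0.0545).

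Rab8b, which shares with Rab8a the transport from Golgi to plasma membrane, had intensities of 2038, 3259 and 2819.8 in spleen control, 1732, 2749 and 2867 in spleen Cre, 2949, 4770.0 and 5091 in node control and 2667, 4759 and 4569 in node Cre. Replicate 1 was lowest in every group, and the tissues overlapped. Rab8b differed by 0.64 under the control label (SE 0.28, limma adjusted p = 0.12) and 0.70 under the Cre label (SE 0.28, limma adjusted p = 0.0825), and with the block it was called under both labels (limma adjusted p = 1.12e-05 and 5.22e-06). Rab8a differed by 0.08 and 0.11 and was called in neither fit.

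In regulated secretion, 1 of 9 measured Rabs (Rab26) was higher under both labels (11.1%, close to the 10.4% of all genes). Under both labels 0 were lower (against 12.3%), and role medians were -0.04 and 0.01. Rab26 (chr17:24529054-24533747), a Rab of secretory vesicles, had intensities of 82.2, 82.8 and 70.2 in spleen control, 64.3, 66.9 and 61.5 in spleen Cre, 526, 307 and 394 in node control and 382, 340.1 and 436 in node Cre. No array of one tissue came near the range of the other. Rab26 differed by 2.35 under the control label (SE 0.18, limma adjusted p = 2.47e-07) and 2.58 under the Cre label (SE 0.18, limma adjusted p = 1.04e-07), a 5.11-fold and a 5.98-fold rise. Rab27a, which brings granules and lysosome-related vesicles to the phagosome and plasma membrane, differed by -0.05 and -0.13. Rab27b differed by 0.03 and 0.10, and neither was called.

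The remaining role held Rab23, Rab28, Rab40b, Rab40c and Rab42, which act at the cilium or are less well placed. Of these 5, Rab23 and Rab42 were higher in node under both labels (40%, against 10.4% of all genes) and 0 were lower (against 12.3%). Role medians were 0.03 and -0.04. Rab23 (chr1:33719896-33742564), a negative regulator of Hedgehog signalling that acts at the cilium, had intensities of 38.6, 47.8 and 52.1 in spleen control, 48.8, 48.2 and 42.1 in spleen Cre, 125, 144 and 180.1 in node control and 122, 125 and 140.4 in node Cre. Every node array was more intense than every spleen array. Rab23 differed by 1.69 under the control label (SE 0.15, limma adjusted p = 9.59e-07) and 1.48 under the Cre label (SE 0.15, limma adjusted p = 3.44e-06), a 3.23-fold and a 2.79-fold rise. Rab42 (chr4:132300438-132303382), a little studied Rab, had intensities of 22.4, 25.0 and 23.3 in spleen control, 22.7, 20.3 and 22.2 in spleen Cre, 52.0, 41.5 and 41.0 in node control and 47.5, 39.3 and 47.4 in node Cre. The spleen arrays lay close to the background of 22.2, and all node arrays were above it. Rab42 differed by 0.92 under the control label (SE 0.11, limma adjusted p = 1.88e-05) and 1.04 under the Cre label (SE 0.11, limma adjusted p = 5.85e-06), and because spleen lies at the floor these sizes may understate the difference. Rab40c, which belongs to a ubiquitin ligase, had intensities of 115, 186 and 206 in spleen control, 114, 186 and 168 in spleen Cre, 158, 169 and 176 in node control and 109.5, 156 and 149 in node Cre, and its overlapping groups differed by 0.03 and -0.16.

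**Figure D3:**
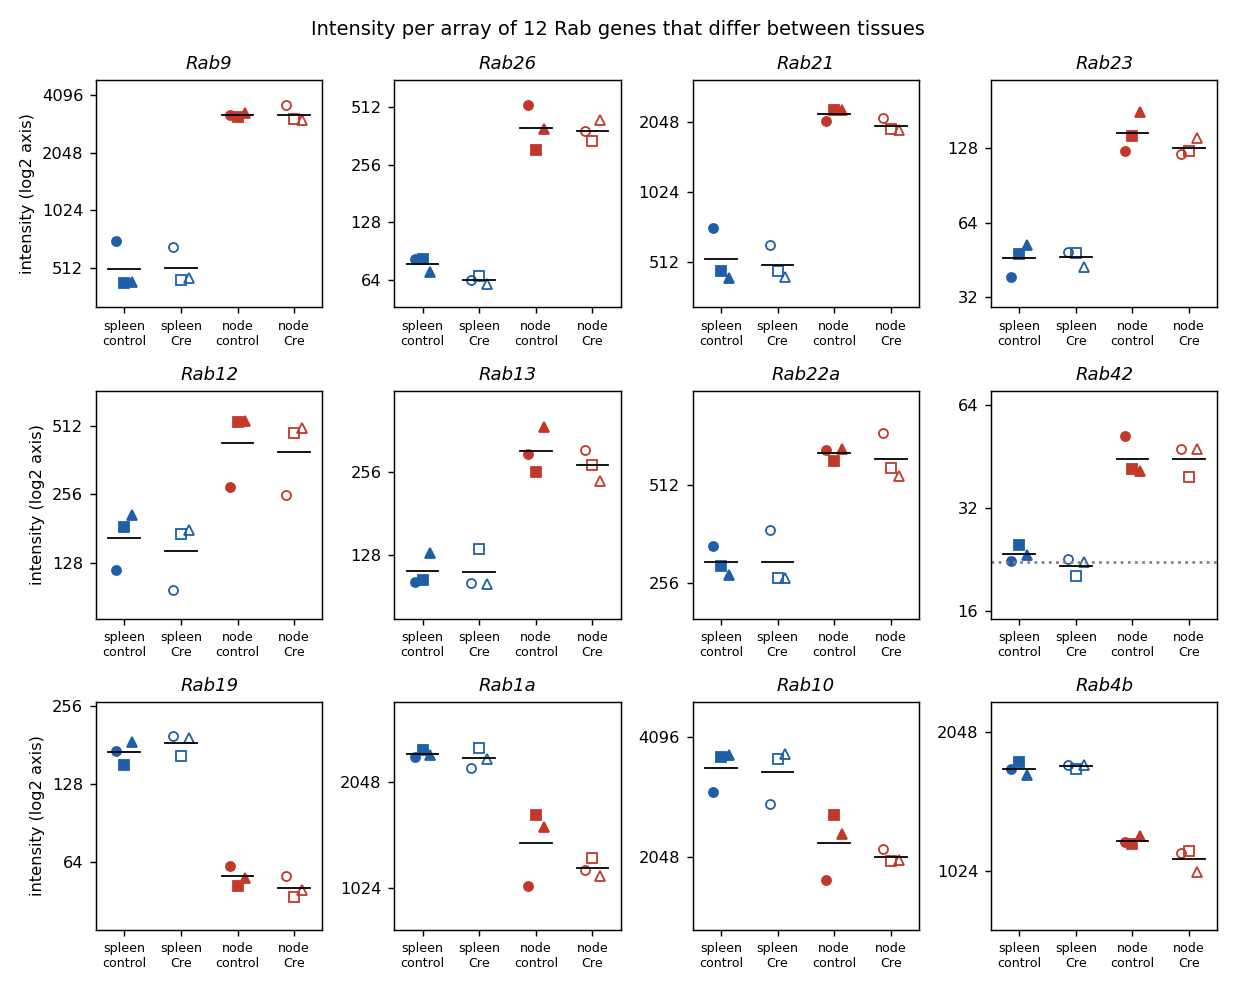
Intensity on a log2 axis on each of the 12 arrays for 12 Rab genes called under both labels, 8 that rose most and 4 that fell most from spleen to node; blue is spleen and red node, filled points are control and open points Cre, circle, square and triangle are replicates 1, 2 and 3, bars are geometric means and the dotted line is the background of 22.2. The tissues do not overlap in any of the 12 genes, and replicate 1 of Rab12 lies below the other replicates in every group.

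Of the 17 members called under both labels, 11 kept both calls whichever single array was left out (Rab9, Rab26, Rab21, Rab23, Rab12, Rab13, Rab22a, Rab42, Rab19, Rab1a and Rab4b). When all 4 arrays of any 1 number were left out together, 9 of these kept both calls, Rab12 and Rab4b being the exceptions. Standard errors of the members ran from 0.07 to 0.35, with a median of 0.16. Members not called ranged from -0.58 (Rab1b) to 0.64 (Rab8b) under the control label and from -0.52 (Rab24) to 0.70 (Rab8b) under the Cre label. Some of these were called once the block was used, among them Rab8b under both labels, Rab1b under the control label and Rab24 under the Cre label (limma adjusted p = 0.00418).

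Genes that load, switch off, carry or read Rabs were counted in lists drawn up from textbook roles, beside the 10.4% of all genes called higher and 12.3% called lower under both labels. Of 7 measured carriers and prenylation genes, 1 was higher (14.3%) and 2 lower (28.6%) under both labels: Rabac1, a factor that helps Rabs onto membranes, by 1.05 and 0.71 under the control and Cre labels, and Gdi2, a GDP dissociation inhibitor, by -0.91 and -1.09. Rabggta, a subunit of the enzyme that attaches the lipid anchor of Rabs, differed by -0.74 and -0.62. Of 35 exchange factors, 7 were higher (20%) and 7 lower (20%) under both labels.

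Sbf2, an exchange factor for Rab21, was higher by 2.16 (SE 0.15, limma adjusted p = 1.29e-07) and 2.03 (SE 0.15, limma adjusted p = 2.11e-07). Dennd3, an exchange factor for Rab12, was higher by 1.65 (SE 0.22, limma adjusted p = 5.78e-05) and 1.62 (SE 0.22, limma adjusted p = 6.85e-05). Ankrd27, which binds Rab32 and Rab38 and loads Rab21, was higher by 1.22 and 0.99, and Ric1, part of the exchange factor for Rab6, by 1.60 and 1.65. Among the exchange factors that were lower, Dennd1b, which loads Rab35, differed by -1.69 and -2.0 and Rin2, which loads Rab5, by -1.07 and -1.08. Dennd2d differed by -0.79 and -1.17 and Dennd2c by -0.94 and -0.80.

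Among 38 measured GTPase-activating proteins, 10 were higher (26.3%) and 6 lower (15.8%) in node under both labels, the lower share lying close to that of all genes. Rabgap1l, which acts on Rab22a, was higher by 1.91 and 1.91 (SE 0.19, limma adjusted p = 3.31e-06 and 3.23e-06). Tbc1d4, which acts on Rab10 and other Rabs of Glut4 traffic, was higher by 1.86 and 1.68 (SE 0.29, limma adjusted p = 0.000201 and 0.000447). Tbc1d8b was higher by 1.24 and 1.03 and Tbc1d14, a regulator of autophagy, by 1.18 and 0.88. On the lower side, Tbc1d31 differed by -3.24 and -3.11 (SE 0.21, limma adjusted p = 5.76e-08 and 8.31e-08). Tbc1d9, Tbc1d10c and Sgsm3 differed by -0.91 and -1.0, by -0.75 and -1.07 and by -0.84 and -0.81.

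Of 61 measured effectors, 8 were higher (13.1%) and 8 lower (13.1%) in node under both labels, near the shares of all genes (10.4% and 12.3%). Lrrk2, the kinase that phosphorylates Rab8, Rab10 and Rab12, had group means of 1348 and 1426 in spleen and 211.5 and 197.5 in node for control and Cre. It differed by -2.68 (SE 0.16, limma adjusted p = 2.51e-08) and -2.85 (SE 0.16, limma adjusted p = 1.52e-08). Rilpl2, which binds the Rabs that Lrrk2 phosphorylates, differed by -2.72 and -2.47 (SE 0.25, limma adjusted p = 1.98e-06 and 4.62e-06). Mical1 and Exoc6, an actin-oxidising enzyme and a subunit of the exocyst tether, differed by -1.98 and -2.31 and by -1.79 and -2.05. Higher effectors were Mical3, a relative of Mical1 that works with Rab8, by 2.58 and 2.89 (SE 0.20, limma adjusted p = 3.17e-07 and 1.09e-07), and Vps39, a subunit of the HOPS tether on Rab7 membranes, by 2.08 and 1.83. Lrrk1, a kinase of Rab7, was higher by 1.31 and 1.15, and Plekhm2, a lysosome to kinesin adaptor, by 1.48 and 1.57.

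Between the genotype labels, the data were asked whether cDC1 with and without the Cre allele differ in Rab expression. No Rab gene passed the adjusted threshold in limma: 0 of 57 in spleen, in node, averaged over tissues or in the difference of the label effect between tissues, with or without the replicate block, and 0% of all genes did so. At an unadjusted p under 0.05, 1 member was reached in spleen (Rab30; 1.79% of all genes), 0 in node (2.02%), 0 in the average (1.92%) and 1 in the difference (Rab30; 1.64%). With the block these became 3 in spleen (Rab30, Rab37 and Rab3d; 4.44%), 3 in node (Rab1b, Rab40c and Rab5a; 6.82%), 3 in the average (Rab12, Rab5a and Rab8b; 5.34%) and 3 in the difference (Rab1b, Rab30 and Rab5a; 5.74%). In replicate 3 of both tissues Cd40 was higher on the Cre array than on the control array (569.5 against 309 in spleen, 3358 against 1542 in node), the opposite of replicates 1 and 2. Whether these labels were exchanged was not tested, and each direction below rests on the labels as given. Without replicate 3 in all groups, 0 members were again called by limma in any genotype comparison, and the Rab medians were -0.02 in spleen and -0.07 in node. Without it Rab30 differed by 0.37, Rab3d by 0.29, Rab34 by -0.23 and Rab26 by -0.33 in spleen, and Rab5a by -0.45, Rab6a by -0.21 and Rab39b by 0.02 in node.

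Rab30, a Golgi Rab, had intensities in spleen of 742, 586 and 734 in control and 844, 863 and 862 in Cre, so that the groups did not overlap. In node the intensities were 799, 960.0 and 987 in control and 889, 746 and 851 in Cre, and these overlapped. Rab30 differed between labels by 0.33 in spleen (SE 0.15, limma unadjusted p = 0.0474, adjusted p = 1), being higher in 3 of 3 same-numbered pairs, and by -0.14 in node. The difference of these effects was -0.47 (SE 0.21, limma unadjusted p = 0.0451) and did not pass the adjustment. Node minus spleen for Rab30 was 0.42 under the control label (limma adjusted p = 0.0567, and called with the block at an adjusted p of 0.0105), beside -0.05 under the Cre label (limma adjusted p = 0.835).

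Besides Rab30, the members with the smallest unadjusted p among those above 0 in spleen were Rab3d, a Rab of secretory granules, at 0.25 (SE 0.16) and Rab19 at 0.12. Those with the smallest unadjusted p among members below 0 were Rab34 at -0.21 (SE 0.11), Rab37, a mast cell granule Rab, at -0.19 (SE 0.11), and Rab26 at -0.28. Rab3d had 63.4, 77.8 and 76.1 in spleen control and 74.8, 98.1 and 85.5 in spleen Cre, and Rab37 had 46.4, 39.3 and 44.4 and 40.8, 36.2 and 36.8, both with overlap. Rab34 had 50.4, 54.8 and 51.5 in spleen control and 47.1, 42.4 and 45.7 in spleen Cre, and Rab26 had 82.2, 82.8 and 70.2 and 64.3, 66.9 and 61.5. In both genes all Cre arrays of the spleen lay below all control arrays. In node the same rule gave, above 0, Rab39b at 0.23 (SE 0.19), Rab39 at 0.09 and Rab33a, which lay at background, at 0.09. Rab39 had 46.9, 48.7 and 42.1 in node control and 43.7, 50.4 and 52.7 in node Cre, and Rab33a had 14.4, 13.8 and 15.4 and 19.5, 13.8 and 13.7, so that both genes overlapped. Below 0 the rule gave Rab6a at -0.20 (SE 0.12), Rab5a at -0.48 (SE 0.30) and Rab1a at -0.24 (SE 0.16). Rab5a was lower in 3 of 3 same-numbered pairs of node (limma unadjusted p = 0.136, and 0.00272 with the block), and Rab6a, a Golgi Rab, had 270.2, 288 and 258 in node control and 246, 238 and 228 in node Cre without overlap. None of these differences passed the adjusted test. Labels also did not overlap in spleen for Rab4a (Cre higher), Rab44 and Rab6b (Cre lower), and in node for Rab40c and Rab4b (Cre lower). The share of all genes without overlap between labels was not counted, so nothing is concluded from such separation, that of Rab30 included.

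Over all members the Cre minus control differences ran from -0.40 (Rab20) to 0.33 (Rab30) in spleen and from -0.48 (Rab5a) to 0.23 (Rab39b) in node. Their medians were -0.03 in spleen, -0.06 in node and -0.06 averaged over tissues, each beside -0.01 for all genes, and -0.03 for the difference of effects, beside -0.00. Averaged over tissues, 16 members lay above 0 and 41 below. The share of all genes below 0 was not counted and members share the deviations of an array, so nothing is concluded from this split.

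**Figure D4:**
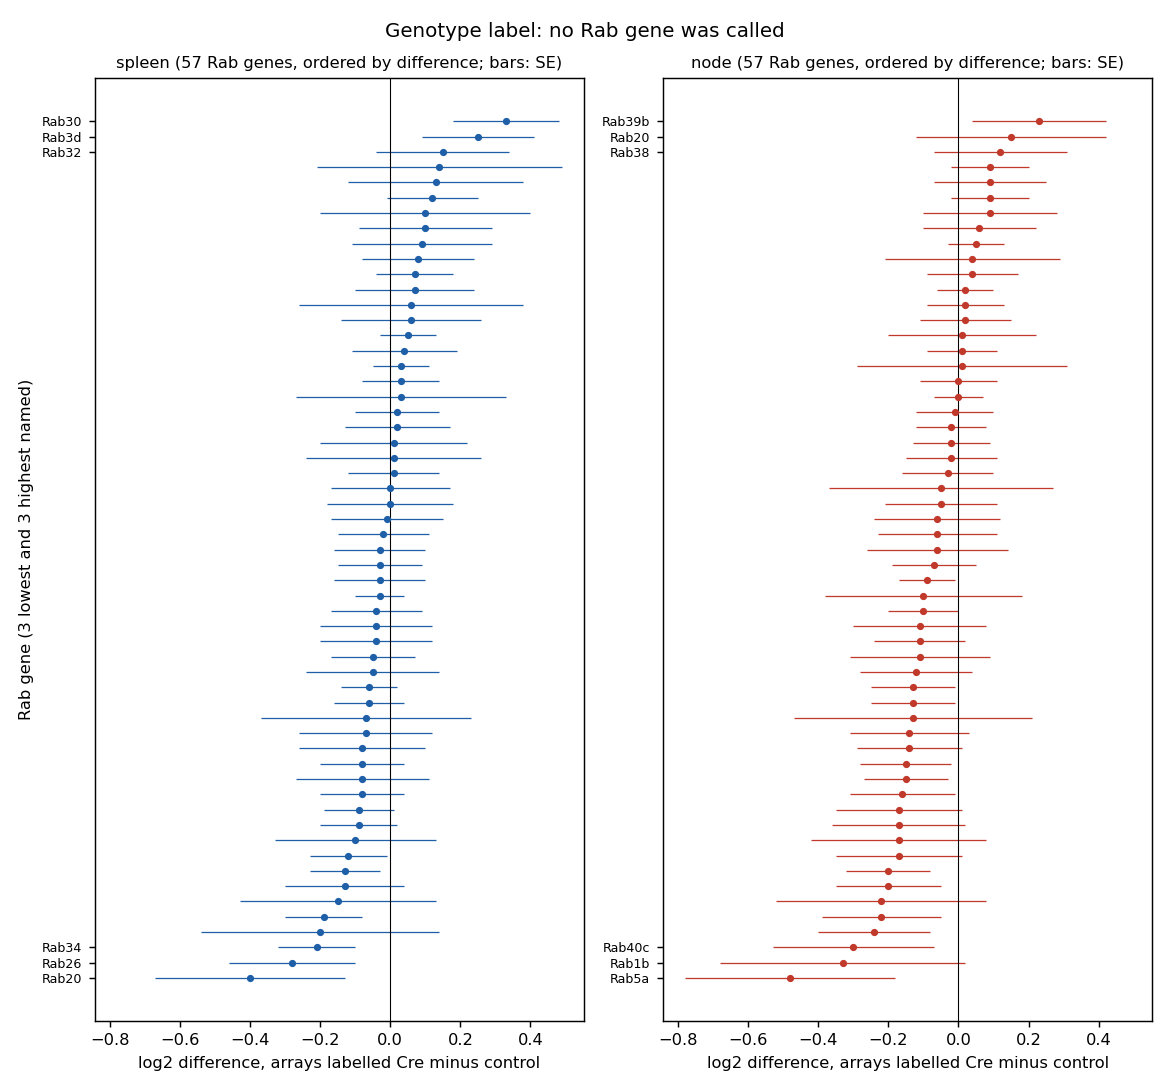
Log2 difference between arrays labelled Cre and control (x axis) for each of the 57 Rab genes, ordered by size within spleen (left) and node (right); points are fitted differences, bars standard errors, and the 3 lowest and 3 highest are named. All differences lie between -0.48 and 0.33, and none was called.

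The arrays numbered 1 stood apart within all 4 groups, in Rabs and in many other genes. Of 57 members, 12 were lowest on number 1 in every group: Rab11b, Rab12, Rab1b, Rab32, Rab35, Rab3d, Rab40c, Rab5a, Rab5b, Rab5c, Rab8a and Rab8b. The same held for 14.2% of all genes (2822). Another 9 members (Rab11a, Rab14, Rab24, Rab28, Rab36, Rab37, Rab38, Rab39b and Rab9b) were highest on number 1 in every group, as were 19.1% of all genes (3807). The mean difference of number 1 from numbers 2 and 3 was -0.87 for Rab1b, -0.86 for Rab12, -0.79 for Rab5b and -0.71 for Rab11b, Rab5a and Rab35, and it reached 0.47 for Rab20 and 0.43 for Rab11a. Among the members just named, this was larger in size than the tissue difference under either label for Rab5b, Rab11b, Rab5a and Rab35. Rab1b, Rab5b and Rab8b were among the members called under both labels only with the block. What sets these arrays apart was not tested.

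**Figure D5:**
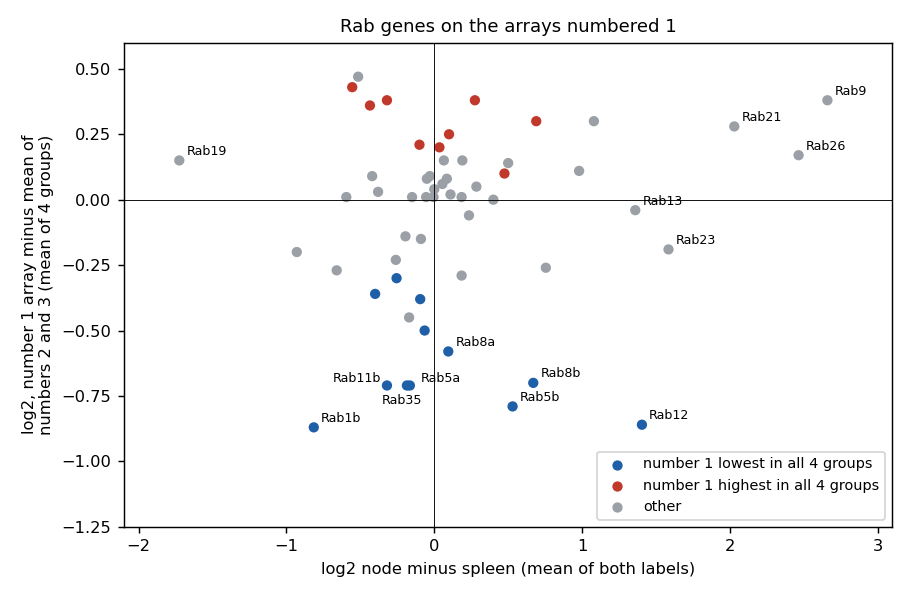
For each of the 57 Rab genes, the mean log2 tissue difference over both labels (x axis) against the mean log2 difference of the replicate 1 array from replicates 2 and 3 over the 4 groups (y axis); blue marks genes lowest on replicate 1 in all 4 groups, red those highest. Rab9, Rab26 and Rab21 lie far right and somewhat above 0 on the y axis, Rab9 at 0.38, while Rab1b, Rab5a, Rab5b and Rab8b lay well below 0 on the y axis.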

How the data were processed

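RNA of sorted cDC1 was labelled with the WT Pico kit, per the labels' protocols, and hybridised to 12 Affymetrix Mouse Gene 1.0 ST arrays. The authors deposited linear-scale intensities for each probe set, made with RMA in Expression Console, per the submitters' processing notes. Here log2 was taken. Of 28853 probe sets, 21789 carried a single symbol, 1621 several and 5443 were not listed; the several-symbol and unlisted sets were not used. Symbols of 21698 sets were matched to RefSeq by Entrez number, and the brightest set per gene was kept (999 genes had more than 1, among them 3 members), which left 19938 genes.

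Each gene was fitted with limma 3.58.1 (R 4.3.3) as 4 group means over all 12 arrays, with eBayes and a trend, two-sided tests and Benjamini-Hochberg adjustment over all genes within each of 6 comparisons, called at an adjusted p under 0.05. The fit was tested on simulated data in which arrays varied independently. That test does not cover deviations shared by same-numbered arrays. Arrays share numbers 1 to 3 across groups in their titles. Deviations from group means correlated between same-numbered arrays at 0.573 to 0.729 (number 1), 0.309 to 0.449 (number 2) and 0.293 to 0.466 (number 3), against -0.633 to -0.319 between number 1 and the others. Numbers 2 and 3 correlated with each other as well as within themselves (0.177 to 0.557), so only number 1 stands apart. Deviations of the 3 arrays of a group cancel out by construction. The negative values, and the positive ones of numbers 2 and 3, therefore follow in part from those of number 1. The main fit used no block. As every same-number correlation was above 0.1, the number served as a block in an alternative fit, and same-numbered arrays were compared as pairs. This pairing comes from the data, which do not set numbers 2 and 3 apart from each other, and the labels do not state it. Alternatives were the replicate block, quantile normalization, array weights, other probe set and background rules, fits of only the groups compared, and leaving out arrays. Probe set numbers were compared with the chromosomes of 5 neighbours on each side, which agreed for 96.9% of sets. The number of arrays limits the precision. Plots used matplotlib 3.10.9 (Python 3.11.15).

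Members and lists were chosen with earlier results of these data known. Array values were given for the 10 members with the largest rise and fall among those called in the same direction under both labels, the 3 smallest unadjusted p per direction and tissue between labels, and the brightest member of each role; up to 4 regulators per list and direction were named by size. Rab29, Rab14, Rab1b, Rab20, Rab5b, Rab5c and Rab9b were given array values after their values were seen.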

Additional observations from a re-analysis of the deposited data

How the results depend on the processing

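Under the control label, 18 members were called between tissues, and this became 29 with the replicate block and 34 with array weights. It became 26, 10 and 9 without replicate 1, 2 or 3, respectively, in all groups, and leaving out 1 array gave 14 to 22. Under the Cre label, 21 became 32 with the replicate block and 36 with array weights. It became 30, 11 and 9 without replicate 1, 2 or 3, respectively, in all groups, and leaving out 1 array gave 15 to 24. In every genotype comparison 0 members were called by limma in each fit leaving out 1 array.

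The median tissue difference of the Rabs was 0.08 with array weights under the control label (-0.03 to 0.04 leaving out 1 array). Under the Cre label it was -0.02 for genes above background and -0.03 without replicate 3 in all groups (-0.03 to 0.01 leaving out 1 array). The genotype median in spleen was 0.00 with array weights and 0.00 without replicate 1 in all groups (-0.03 to -0.01), and in node -0.04 after quantile normalization (-0.08 to -0.05). Averaged over tissues it was -0.07 to -0.04. For the difference of effects it was -0.06 for genes above background, -0.07 with array weights and -0.07 without replicate 1 in all groups (-0.07 to -0.01 leaving out 1 array).

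Between labels in node, Rab39 turned to -0.03 without replicate 3 in all groups. Rab33a, at background, ranged from -0.07 (without node Cre replicate 1) to 0.18 leaving out 1 array and turned to -0.08 without replicate 1 in all groups. The cause of these changes was not tested. The block ended none of the calls made without it.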

Other observations

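Rabs that share a number in their symbol, and so are close relatives, could differ between tissues in unlike ways; the pairs were picked after their values were seen, and the difference between relatives was not tested. Node minus spleen was 2.66 and 2.66 for Rab9 under the control and Cre labels, beside 0.10 and 0.10 for Rab9b. It was -0.52 and -0.67 for Rab4b, beside 0.01 and -0.02 for Rab4a. Rab39b had 0.55 and 0.83, beside -0.21 and -0.18 for Rab39. Rab8b had 0.64 and 0.70 (not called without the block), beside 0.08 and 0.11 for Rab8a. In contrast Rab1a and Rab1b both lay below 0, at -0.83 and -1.03 and at -0.58 and -1.05, as did Rab11a and Rab11b. Rab27a and Rab27b both stayed within 0.13 of 0, and Rab40b and Rab40c within 0.16.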
